A study of Mus musculus with 78 samples.

Results

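The 44 genes described here encode translation initiation factors. They were taken by name from the deposited count table of mouse CD8+ T cells, as every entry whose symbol starts with Eif1 to Eif6, leaving out the eIF2alpha kinases (Eif2ak), the eIF4E-binding proteins (Eif4ebp) and pseudogene names. They make up 44 of the 14695 genes in the table, and all 44 were expressed highly enough to be tested in every comparison. By role, 14 encode eIF3 subunits, 11 belong to the eIF4 group, 5 encode parts of eIF2 or proteins named with it, 5 encode eIF2B subunits, 5 are eIF5 or eIF6 factors and 4 are eIF1 or eIF1A factors.

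Spleens and lymph nodes of C57BL/6J mice gave the primary CD8+ T cells, which had been activated for 3 days. The nutrient experiment deprived them for 3 h of a nutrient, with medium lacking methionine, glutamine, glucose, arginine or the branched-chain amino acids (BCAA), against Control medium. The drug experiment exposed them for 3 h to Halofuginone, Torin1 or 4EGI-1, against DMSO. All cells were washed and lysed with cycloheximide, a drug that holds ribosomes on mRNA. Part of each lysate gave total RNA, and part was run on a sucrose gradient whose fractions 9 to 13 were pooled as polysome RNA, the mRNA carried by many ribosomes. Each group held 3 numbered libraries per RNA fraction. The labels do not say whether these came from separate cultures or animals, so the p-values measure the spread between libraries, which may be technical. Halofuginone inhibits prolyl-tRNA synthetase, Torin1 inhibits the kinase mTOR, and 4EGI-1 is known as an inhibitor of the contact between eIF4E and eIF4G. The drug libraries are labelled as polyA RNA and the nutrient libraries as total RNA, and levels were therefore never compared between the experiments.

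Initiation begins when eIF2, with the initiator tRNA, joins eIF1, eIF1A, eIF3 and eIF5 on the small ribosomal subunit. The eIF4F complex (the cap-binding eIF4E, the scaffold eIF4G and the helicase eIF4A) brings this assembly to the mRNA cap, and eIF5B later joins the large subunit. Shortage of amino acids is known to act through phosphorylation of eIF2alpha, which blocks the exchange factor eIF2B, and through mTOR, which controls eIF4E and the mRNAs with a 5′ terminal oligopyrimidine (TOP) tract. Some initiation factor mRNAs, among them Eif3e, Eif3f, Eif3h and Eif4b, have been reported as TOP mRNAs.

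Total counts were 15144663 to 30637485 per total RNA library and 29917770 to 54272886 per polysome library in the nutrient experiment. In the drug experiment they were 17506526 to 23099949 and 17846266 to 24929556. The 44 genes took 1.27 to 1.77% of the counts of a library. All 7 CD8 T cell markers were present, with a summed level of 6159 to 22149 CPM (counts relative to the library total), against 1.66 to 19.1 CPM for the 2 of 4 B cell markers in the table and 6.77 to 22.0 CPM for the 1 of 3 stromal markers. The effector genes Gzmb and Ifng carried most of the CD8 sum (medians of 8276 and 1437 CPM). The Cd3 and Cd8 genes had medians of 85.6 to 333 CPM. Levels below are CPM after scaling of the library totals, which follow transcript length and are compared between libraries but never between genes. Fold changes are log2 values, condition over its own control (n = 3 against 3), from edgeR's quasi-likelihood test with Benjamini-Hochberg adjustment over all genes. They are given ± a standard error, computed as the absolute change over the square root of the test's F value. It thus rests on the spread over all groups of the fit. A gene was called at an adjusted p below 0.05. Translational efficiency is the polysome over total ratio of a lysate on the log2 scale, and its change is the interaction of condition and fraction. In such bulk samples a relative level cannot separate a change in a transcript from a change in all the others, nor fewer expressing cells from less RNA per cell.

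**Figure D1:**
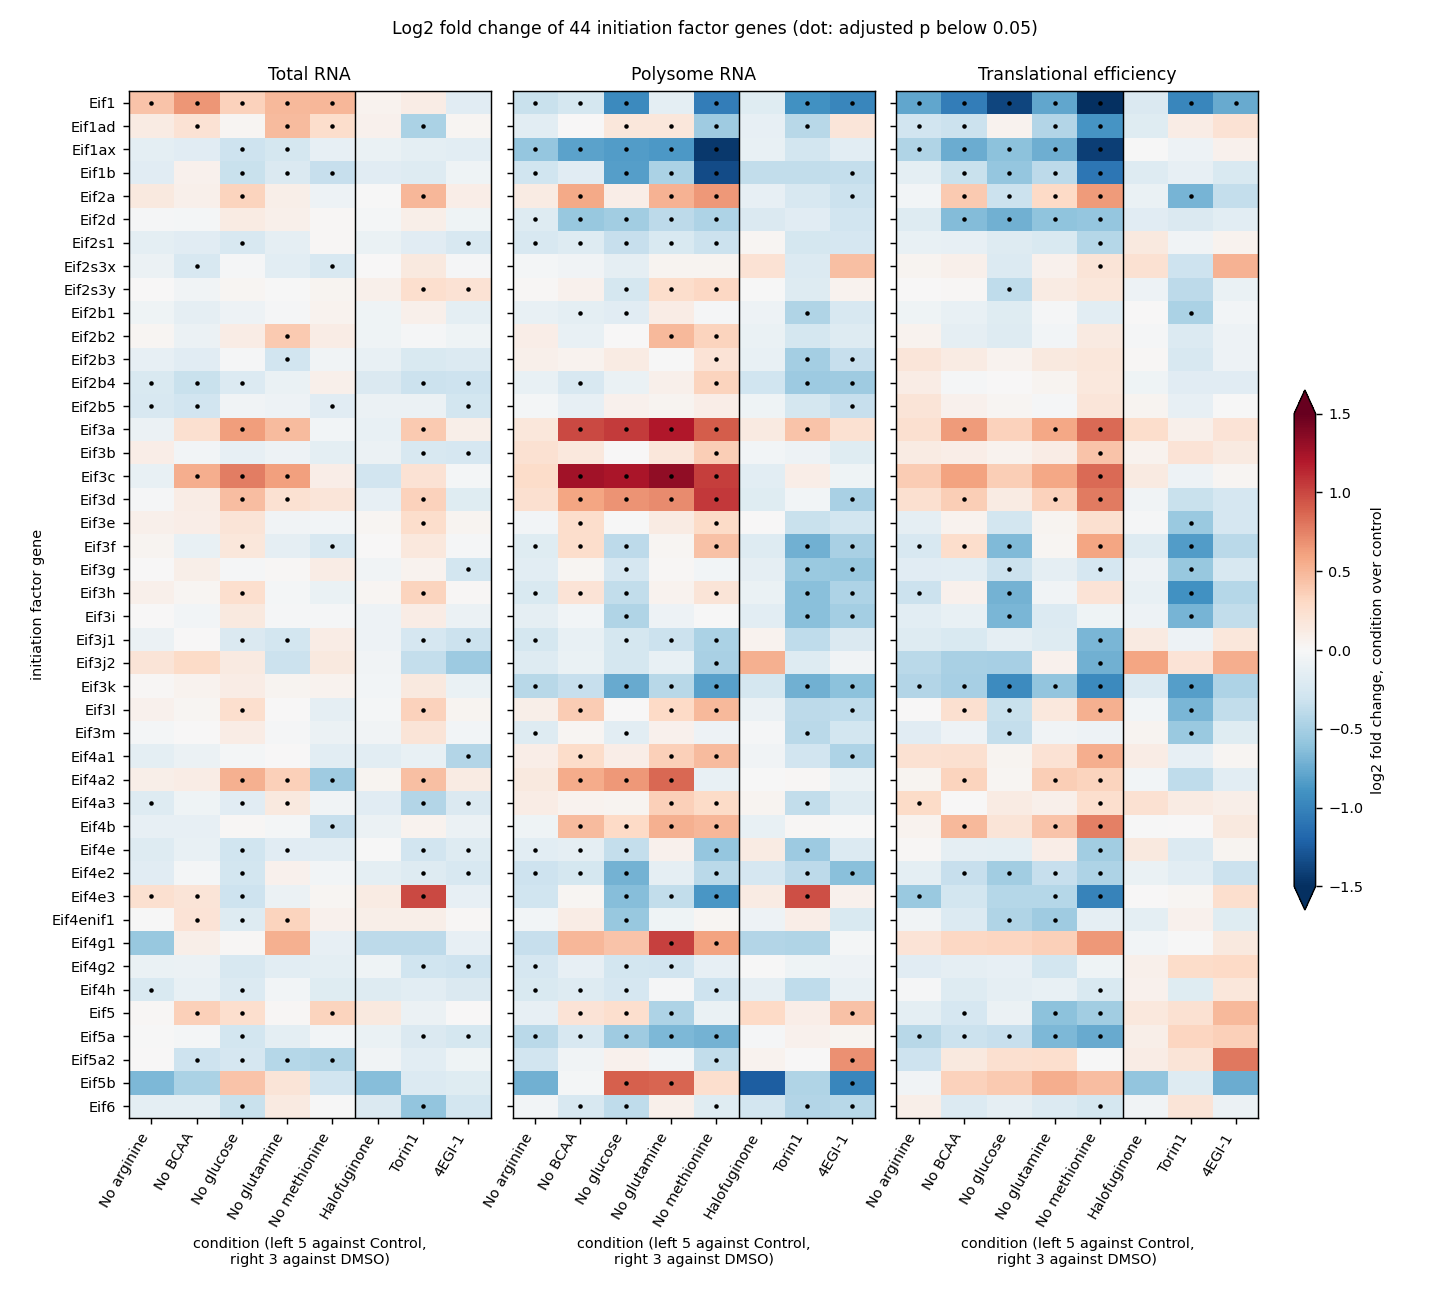
Log2 fold change of the 44 genes (rows, grouped by role) in 8 conditions (columns), for total RNA, polysome RNA and translational efficiency, red where higher in the condition and blue where lower, with a dot where the gene was called. Eif1 is blue for translational efficiency in all 5 deprivations, several eIF3 genes are blue under Torin1, and Eif3a, Eif3c and Eif3d are red in polysome RNA of 4 deprivations.

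In total RNA, the initiation factors moved by small amounts in both directions. Without glucose 10 rose and 14 fell (21.8% and 19.0% of all genes, 40.8% in either direction). Without glutamine 9 rose and 6 fell (20.4% and 18.6% of all genes, 39.0% in either direction), without methionine 3 rose and 7 fell (19.5% and 15.7% of all genes, 35.2% in either direction), without BCAA 6 rose and 4 fell (16.4% and 13.6% of all genes, 30.1% in either direction), and without arginine 2 rose and 4 fell (5.10% and 4.14% of all genes, 9.24% in either direction). Of the 44, 54.5% were called without glucose, 34.1% without glutamine, 22.7% without methionine, 22.7% without BCAA and 13.6% without arginine. Whether these shares differed from those over all genes was not tested, and they are not read as a result about the members. The arginine count of 6 dropped to 1 when Control replicate 1, Control replicate 3, No Arginine replicate 1 or No Arginine replicate 2 was left out, and the glutamine count of 15 to 9 when Control replicate 3 or No Glutamine replicate 1 was. All 5 deprivations share the same Control libraries.

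In polysome RNA more of them were called, as for all genes. Without methionine 17 rose and 16 fell (34.3% and 34.7% of all genes, 69.0% in either direction), without glutamine 14 rose and 10 fell (32.2% and 32.4% of all genes, 64.5% in either direction), without BCAA 12 rose and 12 fell (28.7% and 27.4% of all genes, 56.1% in either direction), without glucose 8 rose and 22 fell (29.6% and 29.4% of all genes, 59.0% in either direction), and without arginine 0 rose and 15 fell (19.0% and 21.6% of all genes, 40.5% in either direction). The median log2 change of the 44 was -0.17 without glucose and -0.15 without arginine, against -0.01 and -0.02 over all genes. The arginine count was 8 when Control replicate 2 was left out, and with another scaling (relative log expression, RLE) it split into 2 higher and 12 lower, and by DESeq2 into 3 higher and 15 lower. Of all genes called without arginine, 54.6% rose with RLE scaling and 54.7% by DESeq2.

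For translational efficiency, without glucose 0 rose and 16 fell (8.84% and 16.9% of all genes, 25.8% in either direction). Without arginine 1 rose and 8 fell (6.72% and 9.81% of all genes, 16.5% in either direction), without methionine 12 rose and 17 fell (19.2% and 29.9% of all genes, 49.1% in either direction), without BCAA 7 rose and 9 fell (8.03% and 18.9% of all genes, 26.9% in either direction), and without glutamine 5 rose and 11 fell (9.98% and 25.2% of all genes, 35.2% in either direction). With the lysate as a replicate block, the members split into 5 higher and 19 lower without glucose, 2 and 8 without arginine, 17 and 17 without methionine, 11 and 11 without BCAA and 8 and 14 without glutamine. Of all genes called in that fit, 36.9% rose without glucose, 46.3% without arginine and 40.7% without methionine. The share was 34.0% without BCAA and 31.3% without glutamine. The splits also depend on the scaling. Leaving out the 4 ribosomal RNA entries of the table before scaling raised the median efficiency change of all genes by 0.14 without BCAA, 0.13 without glucose, 0.16 without glutamine and 0.12 without methionine. The members then split into 11 higher and 4 lower without BCAA, 2 and 10 without glucose, 14 and 8 without glutamine, 19 and 14 without methionine and 2 and 5 without arginine. Of all genes called with this scaling, 60.5% rose without BCAA, 60.0% without glucose and 54.5% without glutamine. The share was 50.6% without methionine and 61.0% without arginine. With RLE scaling the splits were 9 and 6 without BCAA, 11 and 8 without glutamine, and 16 and 14 without methionine. There 43.0%, 49.5% and 46.3% of all called genes rose. Leaving out Control replicate 2 gave 4 calls without arginine, No Arginine replicate 1 gave 1 and No Arginine replicate 2 gave 3. Leaving out Control replicate 2 gave 10 calls without BCAA, Control replicate 3 gave 8 and No BCAA replicate 1 gave 9.

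A joint test asked whether the 5 deprivations differed among themselves. For translational efficiency 29 of the 44 differed (32.6% of all genes), for polysome RNA 40 (80.7%) and for total RNA 29 (60.0%). The efficiency count fell to 17 with replicate 2 of every condition left out and to 15 with replicate 3 left out, and the total RNA count to 19 with replicate 3 left out.

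With drugs, which share the DMSO libraries, Torin1 moved the 44 as follows. In total RNA 9 rose and 10 fell (13.3% and 13.3% of all genes, 26.7% in either direction), in polysome RNA 2 rose and 15 fell (8.48% and 8.30% of all genes, 16.8% in either direction), and for translational efficiency 0 rose and 11 fell (0.118% and 1.67% of all genes, 1.79% in either direction). The polysome count of 17 dropped to 9 when DMSO replicate 1 or Torin1 replicate 4 was left out and to 10 for DMSO replicate 3 or Torin1 replicate 3. The efficiency count of 11 dropped to 7 for DMSO replicate 1 or Torin1 replicate 4, to 6 for DMSO replicate 3 or Torin1 replicate 3 and to 5 for Torin1 replicate 1. Of the 11 efficiency calls, 5 held in every such fit. The library name of Torin1 polysome replicate 3 carries an R whose meaning the labels do not give.

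With 4EGI-1, in total RNA 1 rose and 12 fell (14.1% and 12.3% of all genes, 26.4% in either direction), in polysome RNA 2 rose and 17 fell (14.1% and 14.5% of all genes, 28.6% in either direction), and for efficiency 0 rose and 1 fell (0.282% and 0.282% of all genes, 0.565% in either direction), the gene being Eif1. With the lysate as a replicate block 2 rose and 2 fell for efficiency, and by DESeq2 1 rose and 7 fell. Over all genes 451 rose and 179 fell with the block, and 151 rose and 224 fell by DESeq2. The total RNA count of 13 dropped to 8 when 4EGI-1 replicate 2 or 3 was left out. The polysome count of 19 dropped to 7 when 4EGI-1 replicate 2, whose polysome library name carries the same R, or DMSO replicate 3 was left out. The median polysome change of the 44 was -0.24 with 4EGI-1 and -0.31 with Torin1, against 0.00 and -0.02 over all genes. The joint test over the 3 drugs found differences in 23 of the 44 in total RNA (42.3% of all genes), 13 in polysome RNA (24.2%) and 2, Eif1 and Eif3h, for efficiency (0.479%). The efficiency count was 4 with the lysate as a replicate block. With one replicate number left out at a time, the total RNA count was as low as 7 (without replicate 3), the polysome count 2 (without replicate 4), and the efficiency count 0 (without replicates 1, 3 or 4). DMSO and Torin1 libraries are numbered 1, 3 and 4, and Halofuginone and 4EGI-1 libraries 2, 3 and 4. Leaving out number 1 or 2 therefore removed libraries from only some groups. Replicate blocks within a fraction match Halofuginone and 4EGI-1 to DMSO only in numbers 3 and 4.

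With Halofuginone, in total RNA 0 rose and 0 fell (0.239% and 0.0399% of all genes, 0.279% in either direction), in polysome RNA 0 rose and 0 fell (0.0409% and 0.00818% of all genes, 0.0491% in either direction), and for efficiency 0 rose and 0 fell (0% and 0% of all genes, 0% in either direction), by edgeR's quasi-likelihood test. At an unadjusted p below 0.05 in that test there were 5, 3 and 0 members, counts that are not read as a change, since the share over all genes was not counted. DESeq2 called 0, 1 and 0 members. Over all genes DESeq2 called 64 higher and 21 lower in total RNA, 48 and 12 in polysome RNA, and 0 for efficiency. When DMSO replicate 3 was left out, edgeR's test called 1 member in total RNA and 1 in polysome RNA. The share over all genes was not counted there either, so these calls are not read as a change.

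Eif1 encodes eIF1, which keeps the scanning ribosome from stopping at a poor start codon. Its total RNA rose in all 5 deprivations while its polysome RNA fell in 4 of them, so its translational efficiency fell in all 5. Without BCAA, Eif1 measured 276, 278 and 273 CPM in total RNA, against 159, 179 and 182 CPM in Control (0.67 ± 0.08, adjusted p = 2.2e-06). Without methionine it measured 129, 127 and 126 CPM in polysome RNA, against 287, 246 and 249 CPM in Control (-1.03 ± 0.07, adjusted p = 4.2e-10). All 3 libraries lay on 1 side of the Control libraries in both cases.

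The total RNA change of Eif1 was 0.43 ± 0.08 without arginine, 0.35 ± 0.08 without glucose, 0.49 ± 0.08 without glutamine and 0.49 ± 0.08 without methionine. The polysome change was -0.33 ± 0.07 without arginine, -0.26 ± 0.07 without BCAA and -0.95 ± 0.07 without glucose, all called, and -0.15 ± 0.07 without glutamine, which was not (adjusted p = 0.076). Per lysate, log2 polysome over total RNA of Eif1 was -1.03, -1.05 and -0.93 without methionine, against 0.85, 0.50 and 0.48 in Control. The efficiency change was -1.62 ± 0.11 without methionine, -1.38 ± 0.11 without glucose, -1.04 ± 0.11 without BCAA, -0.78 ± 0.11 without arginine and -0.78 ± 0.11 without glutamine. These were the lowest efficiency changes of any of the 44 genes in each of the 5 deprivations, and each stayed called with any single library left out.

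Torin1 and 4EGI-1 lowered Eif1 on polysomes too. With Torin1 it measured 1100.4, 995 and 1035 CPM in polysome RNA, with 4EGI-1 879, 1116 and 997 CPM, against 1916, 2079 and 1901 CPM with DMSO. The changes were -0.91 ± 0.13 (adjusted p = 0.00014) and -0.98 ± 0.13 (adjusted p = 5.6e-05) by edgeR's quasi-likelihood test, and no library of either drug overlapped DMSO. The efficiency change was -0.98 ± 0.14 with Torin1 and -0.75 ± 0.14 with 4EGI-1. The 4EGI-1 efficiency call was lost without 4EGI-1 replicate 2 or 4 or DMSO replicate 3 (adjusted p up to 0.1), and in a fit of the 2 groups alone (0.06), while the Torin1 call held with any library left out.

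**Figure D2:**
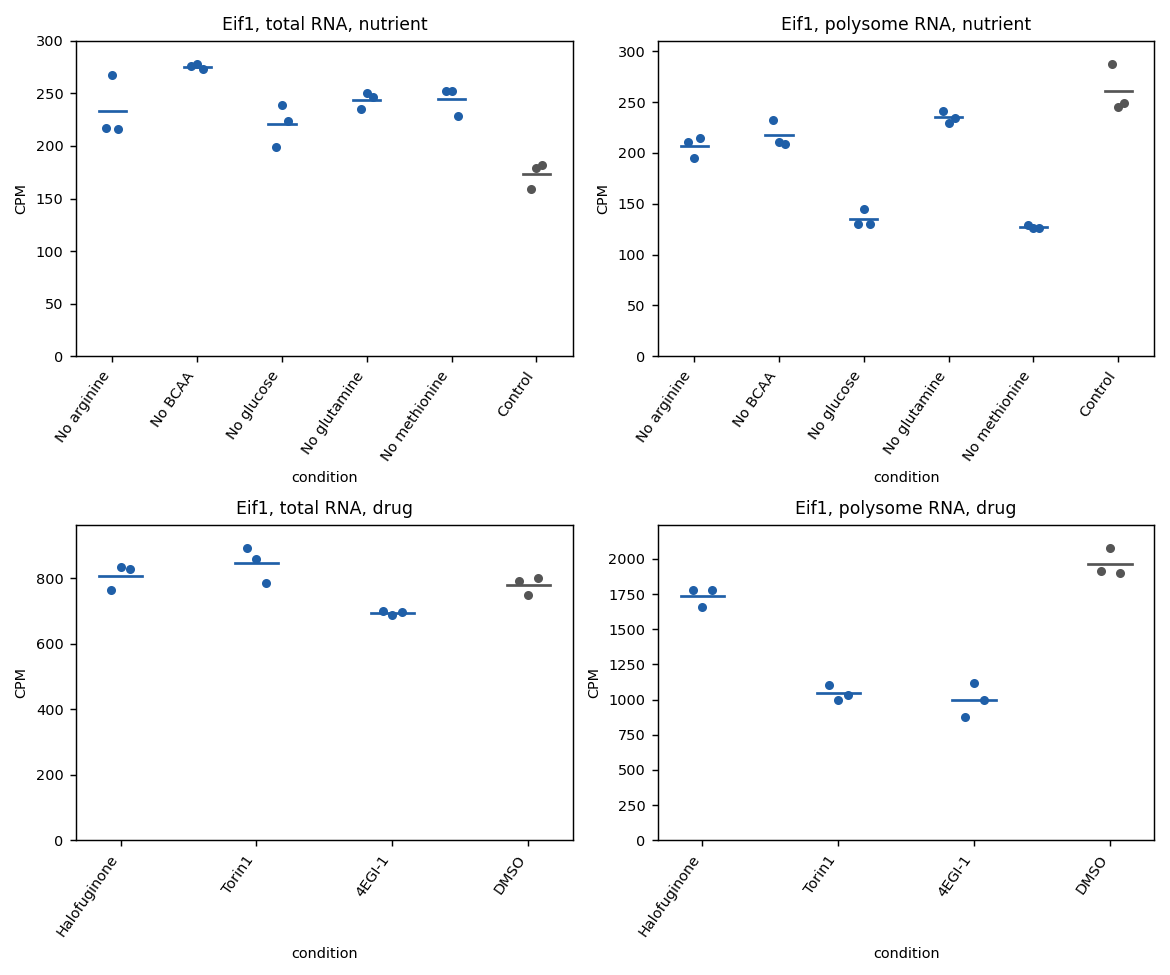
Level of Eif1 in CPM (vertical axes, from 0) in each of 3 libraries per group (points, with the mean as a bar), for total RNA (left) and polysome RNA (right), in the nutrient experiment (top) and the drug experiment (bottom). Total RNA lies above Control in all 5 deprivations, and polysome RNA has its lowest means without glucose (135 ± 8.31 CPM) and without methionine (127 ± 1.59 CPM), against 261 ± 23.2 CPM in Control. In this caption ± is the standard deviation of the 3 libraries.

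Eif1ax, the X-linked gene of eIF1A, the partner of eIF1 in scanning, fell in polysome RNA in all 5 deprivations. It measured 76.9, 81.2 and 70.4 CPM without methionine and 115, 115 and 114 CPM without glutamine, against 202, 228 and 194 CPM in Control. The changes were -1.45 ± 0.09, -0.86 ± 0.09, -0.84 ± 0.09 (glucose), -0.80 ± 0.09 (BCAA) and -0.58 ± 0.09 (arginine), and all stayed called with any library left out. Its efficiency fell in all 5 as well, with changes of -1.41 ± 0.12 without methionine, -0.74 ± 0.12 without BCAA, -0.74 ± 0.12 without glutamine and -0.62 ± 0.12 without glucose. The arginine call (-0.45 ± 0.12) was lost without Control replicate 2 or No Arginine replicate 1 (adjusted p up to 0.12).

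Eif1b, a close paralog of Eif1, measured 27.6, 28.1 and 28.5 CPM in polysome RNA without methionine, against 71.4, 73.0 and 69.0 CPM in Control (-1.34 ± 0.09, adjusted p = 1.9e-10). Its efficiency there changed by -1.08 ± 0.12. Its total RNA was called lower without glucose (-0.33 ± 0.08), glutamine (-0.22 ± 0.08) and methionine (-0.35 ± 0.08), where that of Eif1 was called higher. The glutamine call of Eif1b was lost without Control replicate 2 or 3 or any No Glutamine library (adjusted p up to 0.14) and with no filter on low counts (0.055). Eif1ad, whose product carries an eIF1A-like domain, rose in total RNA without glutamine (0.47 ± 0.06, at 117, 114 and 113 CPM against 82.0, 84.6 and 81.2 CPM in Control). With Torin1 it fell in total RNA (-0.47 ± 0.07). Reads of Eif1 and Eif1b could be split between the paralogs by the authors' counting, which was not tested.

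The table's eIF2 subunit genes encode the alpha subunit and 2 copies of the gamma subunit. Eif2s1, the eIF2alpha subunit that stress kinases phosphorylate, fell on polysomes in all 5 deprivations, with changes of -0.34 ± 0.07 without glucose and -0.32 ± 0.07 without methionine. The arginine and BCAA calls of Eif2s1 (-0.24 ± 0.07 and -0.19 ± 0.07) were lost without Control replicate 2, the first also without No Arginine replicate 1 and the second also without No BCAA replicate 2 or 3 (adjusted p up to 0.1 and 0.1), and the first also in a fit of the 2 groups alone (0.059). The X- and Y-linked copies of the gamma subunit, which binds the initiator tRNA, differed in what was called. Eif2s3y on polysomes measured 138, 149.8 and 131 CPM without methionine, against 111, 119 and 108 CPM in Control (0.31 ± 0.07, adjusted p = 0.00071). Eif2s3x there measured 314, 312 and 298 CPM, against 301, 301 and 294 CPM in Control, groups that overlapped (0.04 ± 0.06, not called). No test of the difference between the 2 copies was run.

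A pair of genes named with eIF2 that are not subunits of it moved in opposite ways on polysomes of 3 deprivations. Eif2a encodes an initiator-tRNA-binding protein, and Eif2d one that acts in initiation and in recycling of the small subunit. On polysomes Eif2a measured 179, 184 and 173 CPM without methionine and 175, 162 and 172 CPM without BCAA, against 123, 109 and 109 CPM in Control. Both were clear of Control (0.65 ± 0.06 and 0.57 ± 0.06), and without glutamine the change was 0.52 ± 0.06. Eif2d measured 63.9, 57.3 and 56.6 CPM on polysomes without BCAA and 59.2, 58.7 and 65.8 CPM without glucose, against 88.2, 88.8 and 85.8 CPM in Control. It fell there (log2 changes of -0.56 ± 0.06 and -0.52 ± 0.06), with no library inside the Control range. The efficiency without BCAA changed by 0.39 ± 0.09 for Eif2a and -0.65 ± 0.09 for Eif2d. Without glucose the efficiency of both fell (Eif2a -0.32 ± 0.09, Eif2d -0.72 ± 0.09), though the Eif2a call was lost without the ribosomal RNA entries (adjusted p = 0.11), while without methionine Eif2a rose (0.64 ± 0.09) and Eif2d fell (-0.57 ± 0.09). Under Torin1, Eif2a measured 242, 273 and 233 CPM in total RNA, against 179, 172 and 178 CPM with DMSO (0.50 ± 0.07), and its efficiency fell, with a change of -0.69 ± 0.13.

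The 5 genes of eIF2B encode the complex that reloads eIF2 with GTP. In total RNA, Eif2b4 measured 40.8, 41.7 and 38.7 CPM without BCAA, against 54.8, 49.4 and 48.7 CPM in Control (-0.34 ± 0.07, adjusted p = 0.00093), and Eif2b5 changed by -0.29 ± 0.06. Without arginine Eif2b4 changed by -0.23 ± 0.07 and Eif2b5 by -0.24 ± 0.06, and both calls were lost without Control replicate 1 or 3 or No Arginine replicate 1 or 2, that of Eif2b4 also without Control replicate 2 (adjusted p up to 0.21 and 0.12). A fit of the 2 groups alone lost both as well (0.061 and 0.058), and one with no filter on low counts that of Eif2b4 (0.053). Eif2b2 rose without glutamine in total RNA (0.39 ± 0.06) and on polysomes (0.49 ± 0.07). The largest eIF2B change on Torin1 polysomes was in Eif2b4 (-0.54 ± 0.15), a call lost without any of 5 libraries (DMSO replicates 1 and 3 and Torin1 replicates 1, 3 and 4; adjusted p up to 0.11). In efficiency, 1 of the 5 genes was called lower under Torin1, where 1.67% of all genes were, and the lowest change of the 5 was -0.47.

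The eIF3 genes, 14 in number, did not move as one block. eIF3 is the large complex that holds the small subunit together with eIF1, eIF5 and eIF2 and contacts eIF4G. Eif3a, Eif3c and Eif3d, for the large core subunits a and c and the cap-contacting subunit d, rose on polysomes without BCAA, glucose, glutamine and methionine. Eif3c measured 1136, 971 and 942 CPM without glutamine and 1069.8, 898 and 929 CPM without BCAA, against 548, 312 and 349 CPM in Control. It was up by 1.34 ± 0.17 (adjusted p = 9.2e-07) and 1.26 ± 0.17, and by 1.23 ± 0.17 without glucose and 1.04 ± 0.16 without methionine. Every library of these 4 groups lay above the highest Control library, replicate 1, which stood well above the other two.

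Eif3a on polysomes measured 1027, 785 and 768 CPM without glutamine, against 462, 336 and 329 CPM in Control (1.20 ± 0.14). The changes without glucose, BCAA and methionine were 1.05 ± 0.14, 0.99 ± 0.14 and 0.91 ± 0.14. Eif3d measured 662, 695 and 719.7 CPM without methionine, against 389, 295 and 315 CPM in Control (1.06 ± 0.10), its largest rise. These polysome calls of Eif3a, Eif3c and Eif3d held with any single library left out. Without BCAA the change of Eif3d was 0.59 ± 0.10. Without arginine none of the 3 was called, with changes of 0.17 ± 0.14, 0.28 ± 0.16 and 0.24 ± 0.10. Without Control replicate 1, however, all 3 were called there (0.35, 0.56 and 0.36; adjusted p = 0.043, 0.0027 and 0.0055), and Eif3d also without No Arginine replicate 3 (adjusted p = 0.036). The joint test of the 5 deprivations on polysomes was passed by Eif3a (adjusted p = 3.1e-05), Eif3c (9.2e-05) and Eif3d (1.4e-05).

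Part of the rise of these 3 genes was present in total RNA. Without glucose, total RNA changed by 0.62 ± 0.15 for Eif3a, 0.77 ± 0.16 for Eif3c and 0.46 ± 0.07 for Eif3d, and none of the 3 was called for efficiency. With the lysate as a replicate block, the glucose efficiency of Eif3a and Eif3c was called higher (0.33 and 0.35; adjusted p = 0.019 and 0.0029). Without methionine, total RNA of the 3 was not called and efficiency rose, by 0.85 ± 0.21, 0.85 ± 0.24 and 0.78 ± 0.12, calls that held with any library left out. Per lysate, log2 polysome over total RNA of Eif3d was 0.66, 0.60 and 0.54 without methionine, against -0.16, -0.20 and -0.19 in Control. The efficiency calls of Eif3a and Eif3d without BCAA (0.63 ± 0.21 and 0.37 ± 0.12) were each lost without Control replicate 3 or No BCAA replicate 1, and that of Eif3a also without No BCAA replicate 2 (adjusted p up to 0.083 and 0.068). Those without glutamine (0.58 ± 0.21 and 0.34 ± 0.12) were each lost without Control replicate 3 or No Glutamine replicate 1 or 2 (up to 0.086 and 0.1).

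**Figure D3:**
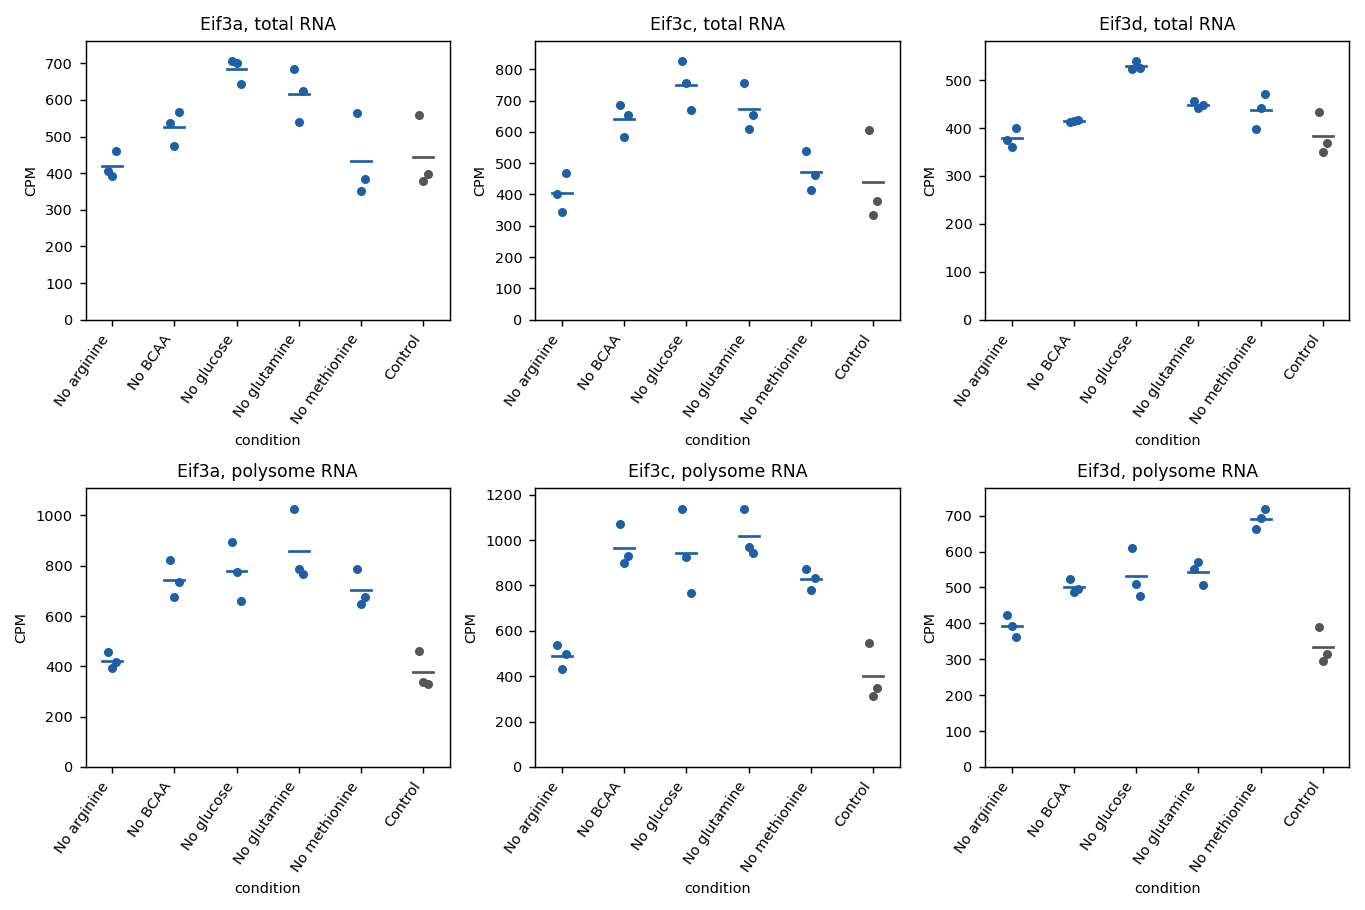
Levels of Eif3a, Eif3c and Eif3d in CPM (vertical axes, from 0) in total RNA (top) and polysome RNA (bottom), for the 5 deprivations and Control, with 3 libraries per group (points) and their mean (bar). On polysomes the libraries without BCAA, glucose, glutamine and methionine lie above all 3 Control libraries, while those without arginine overlap the Control range, and Control replicate 1 is the highest Control point in every panel.

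The genes of the core subunits f and l, Eif3f and Eif3l, went in opposite directions without glucose and without methionine, and Eif3h, for the core subunit h, fell without glucose. Log2 polysome over total RNA of Eif3f was -1.47, -1.36 and -1.42 without glucose and -0.27, -0.11 and -0.10 without methionine, against -0.74, -0.77 and -0.76 in Control. The efficiency of Eif3f changed by -0.66 ± 0.08 without glucose (adjusted p = 6.1e-07) and 0.60 ± 0.08 without methionine (5.3e-07). Neither group overlapped Control, and the 2 lay on opposite sides of it.

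For Eif3l the ratio was -0.57, -0.60 and -0.63 without glucose and 0.24, 0.31 and 0.25 without methionine, against -0.25, -0.25 and -0.30 in Control (-0.34 ± 0.08 and 0.53 ± 0.08). For Eif3h it was -1.16, -1.24 and -1.27 without glucose, against -0.50, -0.51 and -0.53 in Control (-0.71 ± 0.09), and the change without methionine was 0.21 ± 0.09, not called (adjusted p = 0.05, and 0.028 without No Methionine replicate 2, and 0.016 with the lysate as a replicate block). The joint test of efficiency over the 5 deprivations was passed by Eif3f (adjusted p = 9.4e-12), Eif3l (1.5e-08) and Eif3h (1.6e-08). Without the ribosomal RNA entries in the scaling, no direction changed, but the glucose call of Eif3l was lost (adjusted p = 0.055) and the methionine change of Eif3h was called (adjusted p = 0.0035).

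Eif3k, for the subunit k that pairs with l in the complex, followed another course. Its efficiency fell in all 5 deprivations, with changes of -0.95 ± 0.11 without glucose, -0.95 ± 0.11 without methionine, -0.59 ± 0.11 without glutamine, -0.50 ± 0.11 without BCAA and -0.45 ± 0.11 without arginine. The arginine call was lost without No Arginine replicate 1 (adjusted p = 0.08). On polysomes it measured 129, 147 and 141 CPM without methionine and 135, 139 and 159 CPM without glucose, against 238, 249 and 243 CPM in Control, and its total RNA was called in none of the 5. Eif3i fell in efficiency without glucose (-0.68 ± 0.10), as did Eif3m (-0.36 ± 0.09) and Eif3g (-0.33 ± 0.09). The Eif3g call was lost without Control replicate 3 or No Glucose replicate 2 (adjusted p up to 0.057) and with RLE scaling (0.067), and both the Eif3m and Eif3g calls without the ribosomal RNA entries (adjusted p = 0.068 and 0.13). Eif3j1, for the loosely bound subunit j, fell without methionine (-0.68 ± 0.10).

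**Figure D4:**
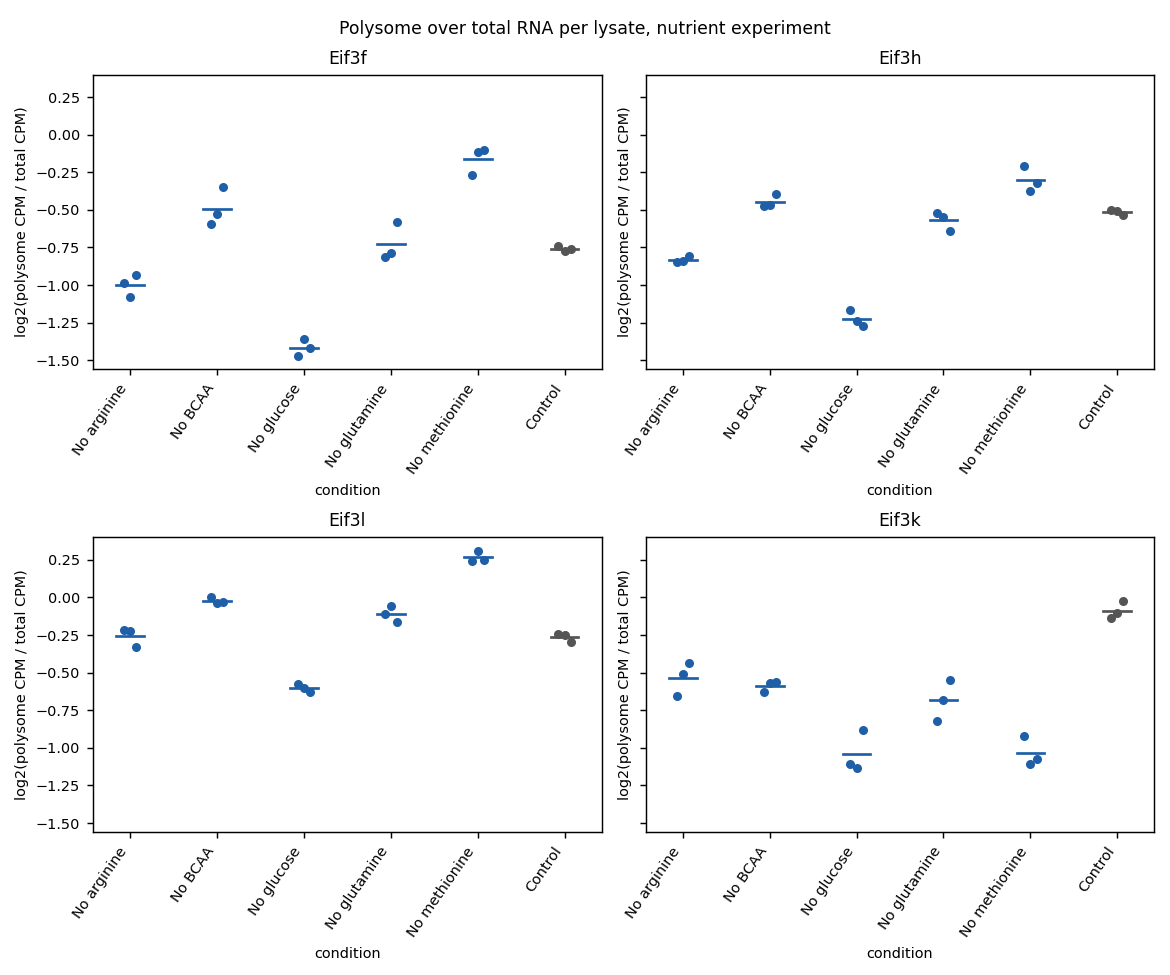
Log2 polysome over total RNA (vertical axes) of Eif3f, Eif3h, Eif3l and Eif3k in the 3 lysates (points, with the mean as a bar) of the 5 deprivations and Control. For Eif3f, Eif3h and Eif3l the glucose lysates lie lowest and the methionine lysates have the highest mean, whereas for Eif3k the glucose and methionine lysates lie together below Control.

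Torin1 lowered the translational efficiency of 8 of the 14 eIF3 genes, Eif3e, Eif3f, Eif3g, Eif3h, Eif3i, Eif3k, Eif3l and Eif3m, where 1.67% of all genes were called lower. Log2 polysome over total RNA of Eif3h was -0.74, -0.70 and -0.65 with Torin1, against 0.23, 0.35 and 0.04 with DMSO (-0.91 ± 0.13, adjusted p = 0.00011). For Eif3f it was -0.89, -1.07 and -0.74, against -0.01, 0.11 and -0.31 with DMSO (-0.84 ± 0.14, adjusted p = 0.00066). For Eif3k it was 0.10, 0.17 and 0.23, against 1.02, 1.11 and 0.85 with DMSO (-0.83 ± 0.15, adjusted p = 0.0022). In all 3 genes the Torin1 and DMSO lysates did not overlap, and the calls held with any library left out.

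The other 5 calls were less firm. Eif3i (-0.69 ± 0.14) lost its call without Torin1 replicate 1 or 3 (adjusted p up to 0.051), and Eif3l (-0.69 ± 0.15) without DMSO replicate 3 or Torin1 replicate 1 (up to 0.14). Eif3e (-0.56 ± 0.14), Eif3g (-0.56 ± 0.14) and Eif3m (-0.56 ± 0.14) each lost it without any of DMSO replicates 1 and 3 and Torin1 replicates 1, 3 and 4 (up to 0.16, 0.17 and 0.21). The Eif3g call was also lost in a fit of the 2 groups alone (adjusted p = 0.06) and the Eif3m call with no filter on low counts (0.056). Eif3a, Eif3b, Eif3c, Eif3d, Eif3j1 and Eif3j2 were not called, with changes of 0.08 ± 0.18, 0.21 ± 0.14, -0.08 ± 0.31, -0.33 ± 0.18, -0.08 ± 0.16 and 0.20 ± 0.45. Whether these 6 differed from the 8 was not tested.

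On Torin1 polysomes Eif3h measured 429, 423 and 418 CPM, against 655, 715 and 591 CPM with DMSO (-0.63 ± 0.12). Eif3f changed there by -0.72 ± 0.13 and Eif3k by -0.73 ± 0.14. The total RNA of Eif3h rose at the same time (0.33 ± 0.06), as did that of Eif3l (0.34 ± 0.06) and Eif3e (0.27 ± 0.06). With 4EGI-1, Eif3g measured 282, 331 and 306 CPM on polysomes and Eif3k 246, 291 and 249.7 CPM, against 468, 501 and 391 CPM and 392, 449.6 and 365 CPM with DMSO (-0.57 ± 0.12 and -0.62 ± 0.14). Eif3h fell there as well (-0.47 ± 0.12), and these 3 calls held with any library left out. By edgeR's quasi-likelihood test, no eIF3 gene was called for efficiency with 4EGI-1, with or without the lysate as a replicate block, while DESeq2 called Eif3f, Eif3h, Eif3i and Eif3k lower (adjusted p = 0.022, 0.002, 0.044 and 0.031).

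**Figure D5:**
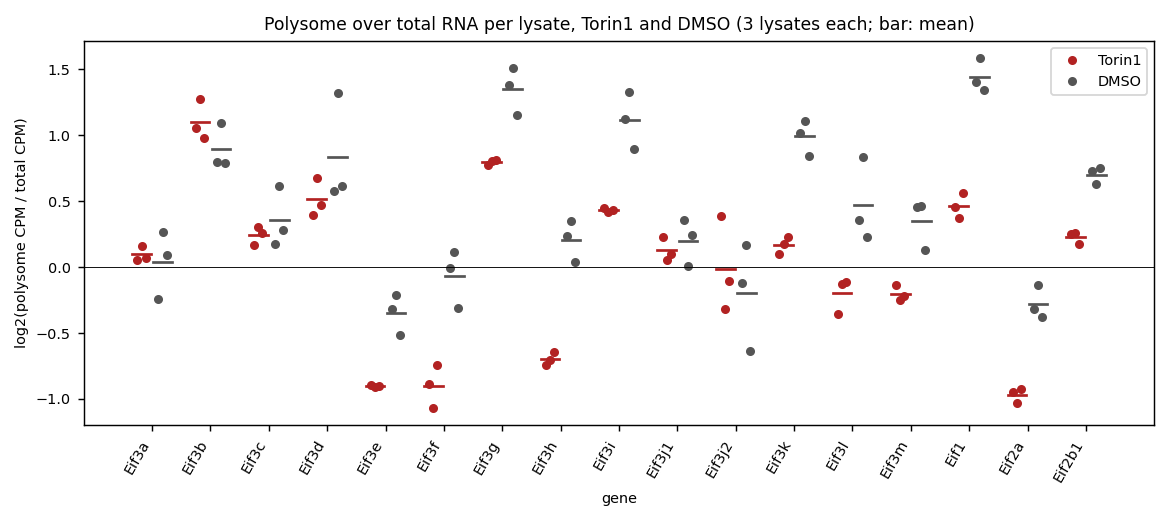
Log2 polysome over total RNA (vertical axis) of the 14 eIF3 genes and of Eif1, Eif2a and Eif2b1 in 3 Torin1 lysates (red) and 3 DMSO lysates (grey), with means as bars. The 2 groups are apart for Eif3e, Eif3f, Eif3g, Eif3h, Eif3i, Eif3k, Eif3l, Eif3m, Eif1, Eif2a and Eif2b1, and overlap for Eif3a, Eif3b, Eif3c, Eif3d, Eif3j1 and Eif3j2.

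Because mTOR is known to control TOP mRNAs, the sequence around each annotated transcription start was searched for an unbroken run of at least 8 C or T. A run counted if it covered the start, ended at the base before it or began just after it. It could thus lie mostly or wholly before the start, outside the transcript. The windows shown hold 30 bases (10 before the start and 20 after). RefSeq starts of build GRCm38.p6 were available for 36 of the 44 genes. Such a run lay at a start of 6 of them, Eif2b5, Eif2s3x, Eif2s3y, Eif3f, Eif3l and Eif4enif1, and at a start of 7.63% of all 27025 genes in the reference table. The run of Eif4enif1 ended before the start. Among the 11 genes whose efficiency Torin1 lowered, 8 had a start and 2 of these, Eif3f and Eif3l, held a run. Among the other members, 28 had a start and 4 held a run. The windows of both lowered genes with a run, of lowered genes without one, and of genes with a run that were not called are shown for comparison, 5′ to 3′ on the strand of the gene, with the run in capitals.
Eif3f (chr7:108934405-108934434, plus strand): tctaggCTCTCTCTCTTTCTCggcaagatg
Eif3l (chr15:79075213-79075242, plus strand): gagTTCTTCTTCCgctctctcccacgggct
Eif3k (chr7:28981869-28981898, minus strand): aaccggcgctggtgctgaaagcgcctttcc
Eif3m (chr2:105017008-105017037, minus strand): cggtcggcgtgtttctggatcggagcgtct
Eif1 (chr11:100319939-100319968, plus strand): ggcgtcacaggggcggctatataagtgaat
Eif2s3x (chrX:94212632-94212661, minus strand): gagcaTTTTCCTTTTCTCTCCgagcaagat
Eif2b5 (chr16:20498807-20498836, plus strand): CTCTTTCTCTCCCTgcaactacaccttcgc

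Eif3f and Eif3l carry a run at the start, that of Eif3l lying mostly before it. Eif3k, Eif3m and Eif1, with no such run in this window, also lost efficiency under Torin1. Eif2s3x and Eif2b5 carry long runs and were not called (-0.31 ± 0.21 and -0.12 ± 0.14). The run of Eif2b5 lies mostly before the start and reaches beyond the window shown, so little of it would be in the transcript. The reported TOP members Eif3e and Eif3h had no start in the table, and the fourth, Eif4b, had no run in this window and an efficiency change under Torin1 of 0.01 ± 0.19, not called. A match describes letters at annotated starts, and the starts used in these cells were not analysed here.

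Within the eIF4 group, the paralogs differed. Eif4e3, a divergent cap-binding paralog of eIF4E, showed the largest rise of the 44 in Torin1 total RNA, at 100.3, 101 and 90.7 CPM against 50.2, 47.7 and 49.1 CPM with DMSO (0.99 ± 0.09, adjusted p = 4.5e-07). On polysomes it measured 34.7, 31.0 and 32.2 CPM, against 14.4, 14.9 and 20.6 CPM with DMSO (0.97 ± 0.17), and its efficiency change was 0.03 ± 0.18. Eif4e, the main cap-binding protein, fell with Torin1, by a log2 change of -0.28 ± 0.06 in total RNA and -0.54 ± 0.13 on polysomes. Eif4e2, a cap-binding repressor, fell on Torin1 polysomes (-0.39 ± 0.12), a call lost without any DMSO library or Torin1 replicate 3 or 4 (adjusted p up to 0.12) and with no filter on low counts (0.057). With 4EGI-1, Eif4e2 measured 166, 182 and 177 CPM on polysomes, against 275, 275 and 259 CPM with DMSO (-0.62 ± 0.12), and Eif4e3 was not called there (0.07 ± 0.17).

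The same 3 paralogs fell on polysomes without glucose and without methionine. Eif4e measured 218, 220.1 and 210.5 CPM without methionine and 249, 261 and 247 CPM without glucose, against 319, 333 and 321 CPM in Control (-0.59 ± 0.06 and -0.36 ± 0.06). Eif4e2 changed by -0.41 ± 0.07 and -0.71 ± 0.07, and Eif4e3 by -0.88 ± 0.13 and -0.64 ± 0.13. Eif4e3 stood at 13.2, 16.2 and 12.5 CPM without methionine, against 21.1, 31.0 and 25.3 CPM in Control, with an efficiency change of -1.0 ± 0.16. Without arginine the efficiency of Eif4e3 changed by -0.55 ± 0.16, a call lost without Control replicate 2 or No Arginine replicate 1 or 2 (adjusted p up to 0.12) and in a fit of the 2 groups alone (0.059).

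Eif4a2, one of the helicase paralogs of eIF4A, moved in both directions in total RNA. It measured 379, 361 and 368 CPM without glucose and 173, 183 and 171 CPM without methionine, against 252, 248 and 264 CPM in Control. It rose without glucose (0.54 ± 0.07) and glutamine (0.36 ± 0.07) and fell without methionine (-0.53 ± 0.07), and the joint test was passed (adjusted p = 1.6e-09). Eif4a1, the main helicase, was called in none of these total RNA comparisons. On polysomes Eif4a2 rose without glutamine to 350.2, 324 and 321 CPM, against 187, 193 and 166 CPM in Control (0.87 ± 0.08), where Eif4a1 rose by 0.36 ± 0.08. With 4EGI-1, Eif4a1 fell in total RNA to 813, 997 and 1129 CPM, against 1433, 1187 and 1357 CPM with DMSO (-0.44 ± 0.10).

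Eif4b, a helper of the eIF4A helicase, gained efficiency without methionine (0.75 ± 0.11), BCAA (0.49 ± 0.11) and glutamine (0.43 ± 0.11). Per lysate its log2 polysome over total RNA was 0.21, 0.33 and 0.25 without methionine, against -0.45, -0.48 and -0.56 in Control. Eif4enif1, which carries eIF4E into the nucleus and binds it in repressed mRNPs, fell on polysomes without glucose to 101, 101 and 99.2 CPM, against 155, 148 and 144 CPM in Control (-0.57 ± 0.06). Eif4g1, the main scaffold, spread more between replicates than most members. It measured 597, 362 and 419 CPM on polysomes without glutamine, against 349.5, 152 and 177 CPM in Control (1.02 ± 0.25, adjusted p = 0.0013). Control replicate 1 was the highest Control library in both fractions for Eif4g1, Eif5b, Eif3a and Eif3c, and its part in these results was tested only by leaving it out.

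Of the eIF5 and eIF6 factors, Eif5a fell on polysomes and in efficiency in all 5 deprivations. eIF5A is the hypusine-bearing factor that helps ribosomes past difficult stretches. On polysomes Eif5a measured 959, 972 and 952 CPM without methionine and 915, 977 and 1046 CPM without glutamine, against 1446, 1661 and 1593 CPM in Control (-0.71 ± 0.08 and -0.68 ± 0.08). The BCAA call (-0.24 ± 0.08) was lost without Control replicate 2 or 3 or No BCAA replicate 1 or 3 (adjusted p up to 0.079). The efficiency changed by -0.75 ± 0.11 without methionine and -0.68 ± 0.11 without glutamine, and both calls held with any library left out. The other 3 efficiency calls of Eif5a (-0.42 ± 0.11 without arginine, -0.33 ± 0.11 without BCAA and -0.35 ± 0.11 without glucose) were lost without Control replicate 2. The arginine call was also lost without No Arginine replicate 1 or 2 (adjusted p up to 0.087), the BCAA call without Control replicate 3 or No BCAA replicate 1 or 2 (up to 0.13) and the glucose call without Control replicate 3 or No Glucose replicate 1 (up to 0.13). The BCAA and glucose calls were lost too with RLE scaling (0.083 and 0.081), without the ribosomal RNA entries (0.22 and 0.14) and by DESeq2 (0.062 and 0.063). Eif5a2, its paralog, fell in total RNA without glutamine (-0.42 ± 0.08) and methionine (-0.45 ± 0.08).

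Eif5, which makes eIF2 hydrolyse its GTP at the start codon, rose in total RNA without BCAA to 358, 334 and 369 CPM, against 272, 274 and 284 CPM in Control (0.35 ± 0.07), and by 0.34 ± 0.07 without methionine. Its efficiency fell without glutamine (-0.61 ± 0.10) and methionine (-0.52 ± 0.10). Eif6, which keeps the large subunit from joining early, fell in Torin1 total RNA to 132, 128 and 142 CPM, against 213, 183 and 209 CPM with DMSO (-0.59 ± 0.11, adjusted p = 0.00054). Eif5b, the subunit-joining GTPase, measured 80.2, 93.5 and 114 CPM on polysomes with 4EGI-1, against 228, 116 and 225 CPM with DMSO (-0.98 ± 0.27, adjusted p = 0.011). That call was lost without 4EGI-1 replicate 2 (adjusted p = 0.051). The polysome rises of Eif5b without glucose (0.90 ± 0.38) and glutamine (0.87 ± 0.38) overlapped Control, and both calls were lost without Control replicate 2 or 3. The glucose call was also lost without No Glucose replicate 1 or 2 and the glutamine call without No Glutamine replicate 1 (adjusted p up to 0.24 and 0.35), and both by DESeq2 (0.081 and 0.086).

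The genes also differed in how far they were loaded on polysomes without any treatment. In Control lysates 25 of the 44 were higher in polysome than in total RNA and 10 lower (37.6% and 28.0% of all genes, 65.7% in either direction). Scaling without the ribosomal RNA entries made this 20 and 14 and shifted the all-gene median by -0.14. Of all genes called with that scaling, 44.8% were higher in polysome RNA. For DMSO lysates 26 were higher and 10 lower (28.4% and 30.9%, 59.3% in either direction). The lowest in both was Eif5a2, with log2 ratios of -1.77, -1.32 and -1.55 in Control and -2.46, -3.44 and -2.63 in DMSO lysates (fitted -1.54 ± 0.11 and -2.78 ± 0.16). The highest were Eif3b in Control (0.84 ± 0.10) and Eif6 in DMSO (1.62 ± 0.12). In Control, Eif3j1 (0.74 ± 0.07), Eif6 (0.72 ± 0.08) and Eif4h (0.64 ± 0.06) came next, and Eif2a (-0.77 ± 0.06) and Eif4e3 (-0.76 ± 0.11) were among the lowest. In DMSO, Eif1 (1.44 ± 0.10), Eif3g (1.36 ± 0.10) and Eif2b4 (1.28 ± 0.14) came next, and Eif4e3 (-1.45 ± 0.14), Eif5 (-1.06 ± 0.12) and Eif2s3x (-1.04 ± 0.15) were among the lowest. Eif3f (-0.76 ± 0.06), Eif3e (-0.65 ± 0.08), Eif3h (-0.51 ± 0.06) and Eif4b (-0.49 ± 0.08), the reported TOP members, were all below 0 in Control. In DMSO lysates Eif4b (-0.82 ± 0.14) and Eif3e (-0.34 ± 0.10) were lower in polysome RNA, Eif3f was not called (-0.06 ± 0.10), and Eif3h was higher (0.21 ± 0.09, adjusted p = 0.048). The Eif3e call was lost without DMSO replicate 4 (adjusted p = 0.071), and the Eif3h call without DMSO replicate 1 or 3 (up to 0.27), with no filter on low counts (0.066) and with the lysate as a replicate block (0.059).

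The partners and regulators of initiation outside the 44 (eIF2alpha kinases, eIF4E-binding proteins, cap and poly(A) factors and the like) gave 24 tested genes of 26 listed. Under Torin1, 0 of these 24 were called for efficiency (1.79% of all genes). On polysomes 3 rose and 1 fell, where 8.48% and 8.30% of all genes did. Without methionine 8 rose and 7 fell for efficiency (19.2% and 29.9% of all genes), and without glucose 4 rose and 2 fell (8.84% and 16.9% of all genes). Of the 8 tested elongation and termination factors of 9 listed, Torin1 lowered the efficiency of 2 (1.67% of all genes) and the polysome RNA of 4 (8.30% of all genes), and raised 0 in either. Without glucose 4 of these 8 lost efficiency (16.9% of all genes) and 0 gained it.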

How the data were processed

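The deposited table holds raw read counts per gene, 1 column per library, for 60 of the 78 labelled libraries, and the other 18, of monosome RNA, were not analysed here. Per the submitters' processing notes, the authors used FastQC, Trimmomatic, STAR, HTSeq, MultiQC and edgeR with build GRCm39, in an order and with settings not given in the sources used here. The criterion by which genes were kept in the deposited counts is also not given. Libraries were grouped by their labels.

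The members and gene lists were chosen with earlier results of these data known. Counts were fitted per RNA fraction and experiment with edgeR 4.0.16 (limma 3.58.1, R 4.3.3), TMM scaling, a filter keeping genes with a minimum count of 10 (filterByExpr), one spread over all groups and Benjamini-Hochberg adjustment over all genes tested. Translational efficiency was fitted over both fractions. The test was checked on simulated counts with the same spread in every fit. That spread was narrower than in the polysome and efficiency fits of the drug experiment, which the check therefore does not cover. Alternatives were RLE scaling, no filter, no ribosomal RNA entries, replicate or lysate blocks, DESeq2 1.42.0, the 2 groups alone, and each library left out. The named genes were those with the largest called changes per comparison, with paralog sets and the reported TOP members. Those that the results turn on are given per library, other members of the paralog sets appear in the heatmap, and further members were named to complete a role group after their values were seen. Total and polysome libraries of one lysate are paired by design (mean correlation of their deviations from the group means 0.06 in the nutrient and 0.11 in the drug experiment). Within a fraction, same-numbered libraries of a condition and Control correlated above 0.1 in all 3 pairs in polysome RNA without glucose (0.11 to 0.34) and without methionine (0.13 to 0.21), where the replicate block gave 9 higher and 23 lower and 17 higher and 16 lower members, and in no other comparison. Of all genes called with that block, 50.4% rose without glucose and 49.9% without methionine. Replicates of a group differed beyond counting noise in every pair (chi-square per degree of freedom of 3.38 to 67.5). RefSeq starts were of build GRCm38.p6, and no coordinates were converted.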

Additional observations from a re-analysis of the deposited data

How the results depend on the processing

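Over 1144 gene results, 6438 values under the alternatives that kept all libraries stayed on the same side of the threshold. Of the rest, 157 lost the call, 180 gained one and 0 reversed. Direction was compared only where either fit called the gene, so uncalled values that changed sign count as having stayed. With each library left out, 6098 stayed, 430 lost the call, 71 gained one, and 1 reversed: Eif5b in 4EGI-1 total RNA, at -0.18 with all libraries, ran from -0.45 to 0.31 and was called at 0.31, without DMSO replicate 1 (adjusted p = 0.04999), by edgeR's quasi-likelihood test. The cause was not tested.

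With the 2 groups alone, fewer libraries enter the fit. The called members without arginine were then 2 in total RNA, 7 in polysome RNA and 5 for efficiency. Over all genes 602 rose and 441 fell in total RNA, 2028 and 1930 in polysome RNA, and 513 and 813 for efficiency. With 4EGI-1 the called members were 10 in polysome RNA and 0 for efficiency. Over all genes 1562 rose and 1447 fell in polysome RNA, and 1 rose and 8 fell for efficiency. Halofuginone polysome RNA had 1 without the filter, 1 with the replicate block and 1 with DESeq2. Over all genes these fits called 7 higher and 2 lower, 3 and 2, and 48 and 12, in that order. Efficiency with 4EGI-1 had 4 with the lysate as a replicate block and 8 with DESeq2, beside the all-gene counts given above. The joint test of efficiency over the drugs had 4 and 10, and its all-gene counts under these settings are not given here. The causes were not tested. With the replicate block, polysome RNA without arginine had 4 members higher and 17 lower (48.0% of all called genes were higher), with Eif3a, Eif3b, Eif3c and Eif3d the higher ones. Beside these, the efficiency splits given above for the lysate block and Halofuginone, no number of members called in either direction moved by over 1.5 times under a block. Between a condition and its control, the same-numbered libraries' deviations correlated above 0.1 in all 3 pairs only in polysome RNA without glucose and without methionine. Elsewhere single pairs reached 0.26 (polysome RNA without glutamine) and 0.24 (total RNA with Torin1). The labels do not say what same-numbered libraries share, and a shared batch was not tested.

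With single libraries or lysates left out, the called members in total RNA numbered 1 to 7 without arginine, 7 to 12 without BCAA, 18 to 23 without glucose, 9 to 15 without glutamine, 9 to 14 without methionine, 0 to 1 with Halofuginone, 14 to 17 with Torin1 and 8 to 15 with 4EGI-1. In polysome RNA they numbered 8 to 21, 19 to 24, 27 to 31, 21 to 23 and 30 to 33 in the same order of deprivations, 0 to 1 with Halofuginone, 9 to 16 with Torin1 and 7 to 16 with 4EGI-1. For efficiency they numbered 1 to 11, 8 to 16, 15 to 18, 11 to 17 and 24 to 28, then 0 with Halofuginone, 5 to 10 with Torin1 and 0 to 1 with 4EGI-1. Polysome over total RNA gave 30 to 32 in Control and 33 to 36 in DMSO. The joint tests over the deprivations gave 19 to 28 in total RNA, 32 to 39 in polysome RNA and 15 to 28 for efficiency. Those over the drugs gave 7 to 19, 2 to 12 and 0 to 1. The share of all genes called was not counted in these fits, so the ranges are not read as particular to the members.

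Replicates of a group differed beyond counting noise in all 60 pairs, taken over all genes together. Whether the 3 libraries a group or the depth limits the precision of a given member was not tested.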
